A study of Bos taurus with 30 samples.

Results

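HSPA1A encodes the main stress-inducible member of the HSP70 family of chaperones. HSP70 proteins bind unfolded stretches of other proteins and release them in a cycle driven by ATP. HSP40 proteins (the DNAJ genes) hand over the substrate and start the cycle, BAG proteins and HSPH1 exchange the nucleotide, and the transcription factor HSF1 switches on HSPA1A and its partners after heat, wounding and other stress. On the bovine array used here the gene is read by 6 probe sets, that is, groups of short probes that together give 1 signal. They are all the probe sets annotated to the symbol HSPA1A, 6 of 24016 on the array, and HSPA1A is 1 of 9155 gene symbols. The gene was selected on the log2 signal of its probe sets in these same arrays, in which they disagree. Its own levels, differences and correlations between probe sets are therefore a description, with no test.

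The arrays measured skin of F2 cattle from a cross between Gyr (Bos indicus) and Holstein (Bos taurus), with 6 tick resistant and 7 tick susceptible animals by their labels. Biopsies came from the places where ticks feed, before infestation (0 h) and at 24 h and 48 h after it. The 30 arrays hold 5 resistant and 3 susceptible animals before infestation, 6 and 6 at 24 h, and 5 and 5 at 48 h. All animals share the cross and the tissue, and the sources used here do not give age or the way resistance was scored. Only 7 of 13 animals have an array at all 3 times. Values are log2 signal, on which 1 unit is a doubling.

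In most animals 3 of the HSPA1A probe sets gave the same picture, a high signal that varied together from array to array. In the 3 arrays of susceptible animal 10, 1 at each time, 2 of those 3 probe sets read far below the array median while the third read as high as in other animals. The remaining probe sets followed neither the first 3 nor, closely, each other. The disagreement is thus of 2 kinds, a gap in 1 animal and a lack of shared movement across the arrays, and they are described in turn.

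By their gene identifiers the 6 probe sets fall into 2 sets. Bt.23161.2.A1_at, Bt.23528.1.S1_at, Bt.7035.1.S1_at and Bt.7035.2.S1_at carry the NCBI Gene ID 282254 and are listed against single GenBank entries. Bt.5154.1.S1_at and Bt.5154.1.S1_s_at carry the ID 281825 and are listed against a RefSeq mRNA. In the RefSeq gene table used here (assembly ARS-UCD2.0) the ID 282254 has 1 row, HSPA1A, with HSP70-1, HSP70-2 and HSPA1B among its synonyms, and the ID 281825 has 0 rows. No probe set is annotated to HSPA1B or HSPA1L here. Probe sequences were not looked at, so which of the near-identical HSP70 copies each probe set reads is uncertain. In the maker's naming the ending _s_at marks a set whose probes match more than 1 transcript. Genome positions are not given, because no build is named for the array's annotation, and the gene table served only for names and neighbours.

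A probe set was kept for tests when it lay at or above the median of its array in at least 3 arrays, which held for 13809 of 24016 probe sets and for 5 of the 6 of HSPA1A. Array medians lay between 7.17 and 7.40. Bt.7035.2.S1_at was below the median on all 30 arrays, at 1.02 to 6.06 with a median of 5.30, and was left out of the fit. Levels of different probe sets have no common scale and are not set against each other. Only how each one moves across arrays is compared.

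Bt.23161.2.A1_at was high on every array. In resistant skin at 0 h it read 14.41, 13.74, 13.90, 14.08 and 13.99 in animals 01 to 05. At 24 h the 6 resistant arrays ran from 11.62 over a median of 13.53 to 14.46, and at 48 h the 5 read 14.19, 14.07, 12.94, 13.66 and 12.11 in animals 01, 02, 03, 05 and 06. The arrays before infestation lay close together, and the later ones spread downwards, with animal 06 lowest at both times.

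In susceptible skin Bt.23161.2.A1_at read 14.37, 14.27 and 13.23 at 0 h in animals 09, 10 and 11. At 24 h the 6 arrays ran from 12.64 over a median of 13.69 to 14.60, and animal 10 was the lowest. At 48 h the 5 arrays read 14.13, 12.10, 13.72, 14.44 and 12.60 in animals 07, 09, 10, 11 and 13. All 6 groups overlapped, and animal 10, at 12.64 to 14.27, lay within the range of the other 27 arrays.

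Bt.5154.1.S1_at read 14.47, 13.85, 13.90, 13.92 and 14.23 in resistant skin at 0 h. At 24 h the resistant arrays ran from 12.02 over a median of 13.61 to 14.48, and at 48 h they read 14.35, 14.32, 13.45, 14.18 and 13.09. Resistant arrays were thus high at every time, as for Bt.23161.2.A1_at. The lowest at 24 h was animal 04 here and animal 06 in Bt.23161.2.A1_at. In susceptible skin it read 14.62 in animal 09, 3.42 in animal 10 and 13.41 in animal 11 at 0 h. At 24 h the 6 arrays ran from 4.24, again animal 10, over a median of 13.97 to 14.79. At 48 h they read 14.36, 12.77, 5.55, 14.53 and 12.58 in animals 07, 09, 10, 11 and 13, and animal 10 was once more the low array.

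Bt.5154.1.S1_s_at had the same low animal. In resistant skin it read 14.45, 13.61, 13.50, 14.07 and 13.86 at 0 h, ran from 11.43 over a median of 12.92 to 14.42 at 24 h, and read 14.13, 14.27, 12.61, 13.09 and 11.96 at 48 h. In susceptible skin it read 14.06, 4.96 and 12.95 at 0 h, with animal 10 at 4.96. At 24 h it ran from 4.67 in animal 10 over a median of 13.47 to 14.59, and at 48 h it read 14.02, 11.73, 5.61, 14.44 and 12.25, with animal 10 at 5.61. The 3 arrays of animal 10 are the only ones on which either Bt.5154.1 probe set lay below its array median.

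**Figure D1:**
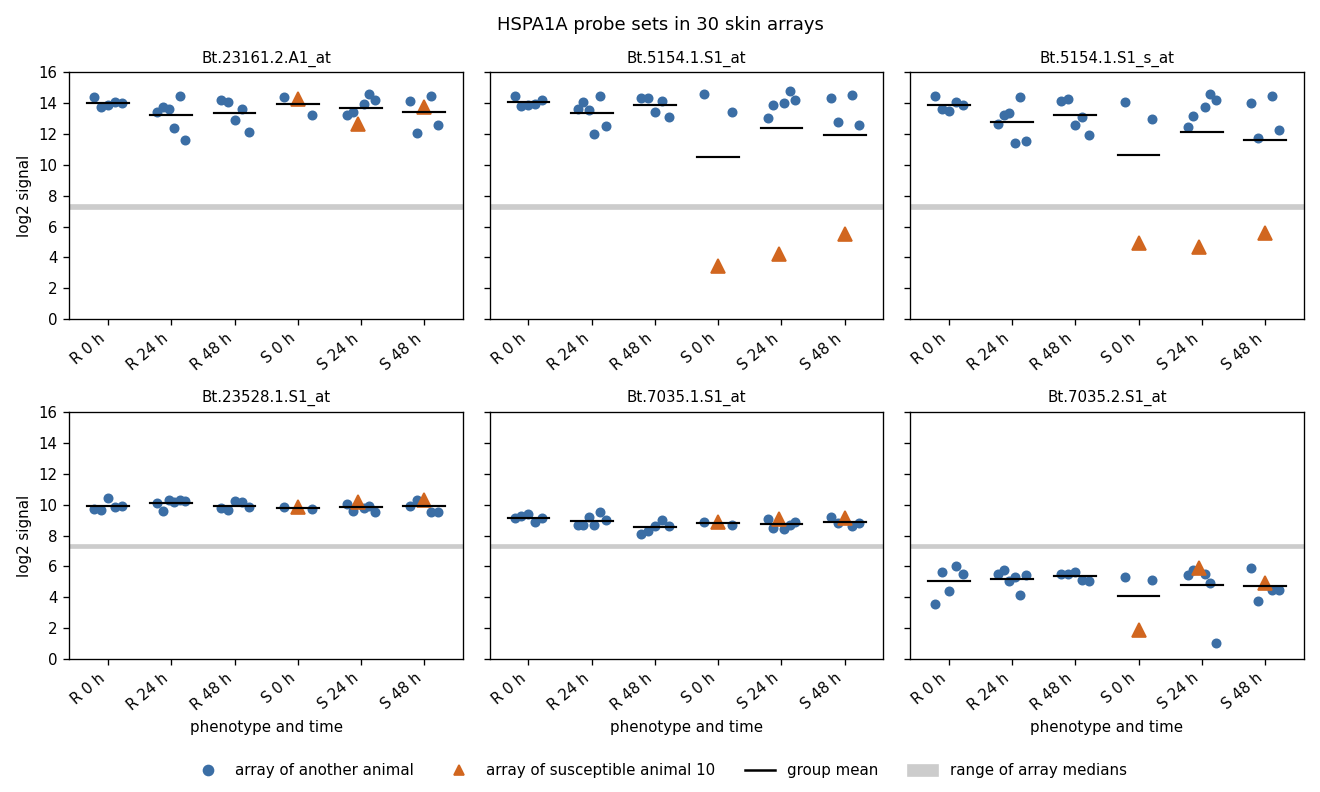
Log2 signal (vertical axis) of the 6 HSPA1A probe sets in resistant (R) and susceptible (S) skin at 0, 24 and 48 h, 1 point an array, with a black line at each group mean and a grey band over the range of array medians (7.17 to 7.40). Orange triangles mark susceptible animal 10, which lies at 3.42 to 5.61 in the Bt.5154.1 probe sets and within the range of the other arrays in Bt.23161.2.A1_at.

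Between the highest array of animal 10 and the lowest of the other 27 arrays the gap was 6.48 log2 units for Bt.5154.1.S1_at and 5.82 for Bt.5154.1.S1_s_at. The same gap was computed for all 24016 probe sets and the 10 animals with 2 or more arrays, and these 2 values were the largest. In the other animals the largest was 3.30, for a probe set without a symbol in animal 06. Animal 10 itself had 29 probe sets below all other arrays, 3 of them by more than 1 unit and 2 by more than 3, the Bt.5154.1 pair. These gaps were not tested, since the gene was chosen for its disagreement.

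Other genes of the stress response in animal 10 had no such gap, and only 2 of all 24016 probe sets had one over 3 units there. Of 61 further heat shock genes, 45 had all 3 arrays of animal 10 within the range of the other 27, and 0 had all 3 below it or all 3 above it. Only 29 of all 24016 probe sets had all 3 below it, so 0 of 61 is no trait of the stress genes. The share within range over all probe sets was not computed, so whether 45 of 61 is usual cannot be told. DNAJB1, the HSP40 partner whose signal is most like that of Bt.23161.2.A1_at, read 11.39 to 13.37 in animal 10 and 10.45 to 13.12 in the others. Protein-coding neighbours of HSPA1A in the gene table were taken as 10 on each side. Of both sides together only 10 had a kept probe set, and the rest were not measured here. Among those 10, 7 had all 3 arrays of animal 10 within range and 0 had none, again with no share over all probe sets beside them. NEU1, the lysosomal sialidase next to HSPA1A, read 7.78 to 8.45 against 6.53 to 8.64 in the others, and LSM2, an RNA-processing factor, 9.54 to 9.75 against 9.62 to 10.13.

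The 24 h and 48 h arrays of animal 10 also stood high in a list of 9 immediate early genes, such as FOS and EGR1. Their means were 12.63 and 11.69, against 9.60 to 11.48 in the other animals. The 0 h array of animal 10, at 10.76, lay within that range. Over all 3 arrays of animal 10 the macrophage list of 6 genes was at 6.99 to 9.03 against 7.81 to 10.46. The 3' minus 5' difference of the actin control probe sets, a sign of RNA quality, was at 1.04 to 3.06 against 1.16 to 5.76. The part of any of these in the low Bt.5154.1 signal was not tested.

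The share of variance that lay between animals was 96.6% for Bt.5154.1.S1_at and 93.4% for Bt.5154.1.S1_s_at, against a median of 47.6% over the kept probe sets. Only 1 and 6 kept probe sets had a larger share. Without animal 10 the shares were 52.6% and 45.1%, near the median of 48.5% over the same 27 arrays. Bt.23161.2.A1_at had 51.2% and Bt.7035.1.S1_at 43.6%. Bt.23528.1.S1_at, which spans only 9.54 to 10.44, had 67.3%. These shares use the animal numbers as given, of which 3 at 0 h are uncertain. With those 3 moved the Bt.5154.1 pair had 96.1% and 92.7%, against a median of 50.1%. Bt.23161.2.A1_at then had 37.9%, Bt.7035.1.S1_at 36.0% and Bt.23528.1.S1_at 67.1%. Without animal 10 the pair had 43.0% and 38.7% with the numbers moved, against a median of 51.3%.

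Without animal 10 the 3 high probe sets moved together across arrays. Over 27 arrays the Pearson correlation of Bt.23161.2.A1_at was 0.97 with Bt.5154.1.S1_s_at (Spearman 0.97) and 0.92 with Bt.5154.1.S1_at (Spearman 0.95). The Bt.5154.1 pair correlated at 0.94. Among the 13808 other kept probe sets these were the 2 most like Bt.23161.2.A1_at, in first and second place. The arrays share animals, so they are not 27 independent points.

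With the 3 arrays of animal 10 the same pairs gave 0.34 (Spearman 0.81) and 0.21 (Spearman 0.78), places 878 and 2207, while the Bt.5154.1 pair was at 0.99. These pooled values rest on 3 arrays that stand apart. Over the 27 others the SD of the difference between the log2 signals of 2 probe sets was 0.31 for Bt.23161.2.A1_at and Bt.5154.1.S1_at and 0.28 for Bt.23161.2.A1_at and Bt.5154.1.S1_s_at, and with animal 10 it was 2.90 and 2.53.

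**Figure D2:**
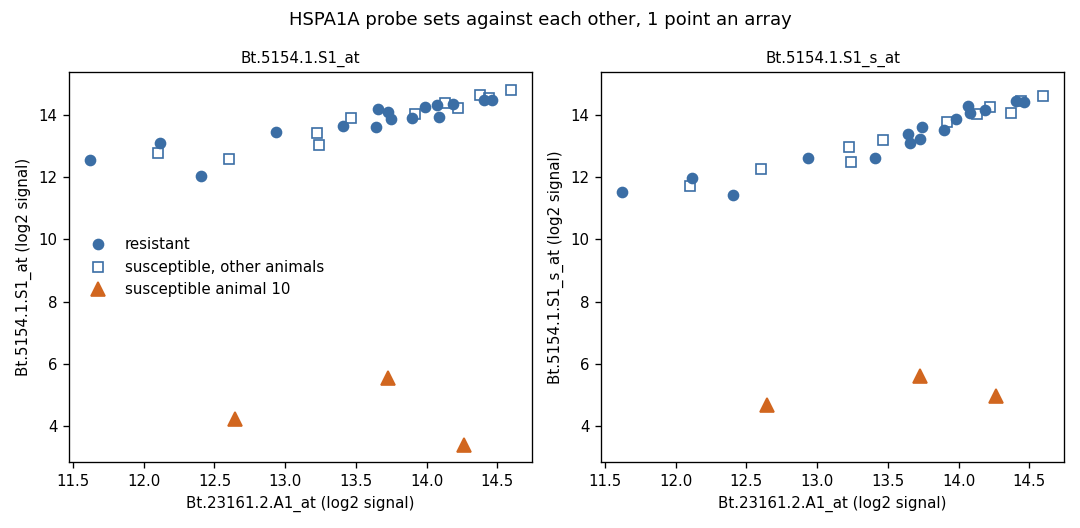
Log2 signal of the Bt.5154.1 probe sets (vertical axes) against Bt.23161.2.A1_at (horizontal axes), 1 point an array. The 27 arrays of other animals lie along a rising line (r = 0.92 and 0.97), and the 3 triangles of susceptible animal 10 lie below it at 3.42 to 5.61.

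The other kept probe sets of HSPA1A did not follow the high ones across the arrays as a whole. Bt.23528.1.S1_at correlated at -0.31 with Bt.23161.2.A1_at over 30 arrays and -0.31 over 27. Bt.7035.1.S1_at correlated with it at 0.085 and 0.10. Bt.23528.1.S1_at and Bt.7035.1.S1_at correlated with each other at 0.48, and at 0.45 without animal 10. Their own ranges are narrow, 9.54 to 10.44 and 8.11 to 9.55, beside 11.62 to 14.60 for Bt.23161.2.A1_at. Bt.7035.2.S1_at correlated with the other probe sets at -0.20 to 0.22.

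By the SD of the difference between probe sets HSPA1A stood near the top of the genes on this array. That place is a description only, since the gene was chosen for its disagreement. Of 1290 genes with 2 or more kept probe sets, HSPA1A had the third largest SD of the difference between 2 of its probe sets, 3.04, where the median of the other genes was 0.42. BOLA-DQB1, a class II histocompatibility gene, had the largest at 4.99, and 5 genes were above 2. Without animal 10 HSPA1A was at 1.09, in place 24. By its lowest correlation between 2 probe sets, -0.32, 47 genes were lower, and the median of the others was 0.29. The 10 other heat shock genes with 2 or more kept probe sets had lowest correlations of 0.13 to 0.93 and SDs of at most 0.60. HSPA1A has 5 kept probe sets, which gives it more pairs than most genes, and only 17 genes had 5 or more.

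**Figure D3:**
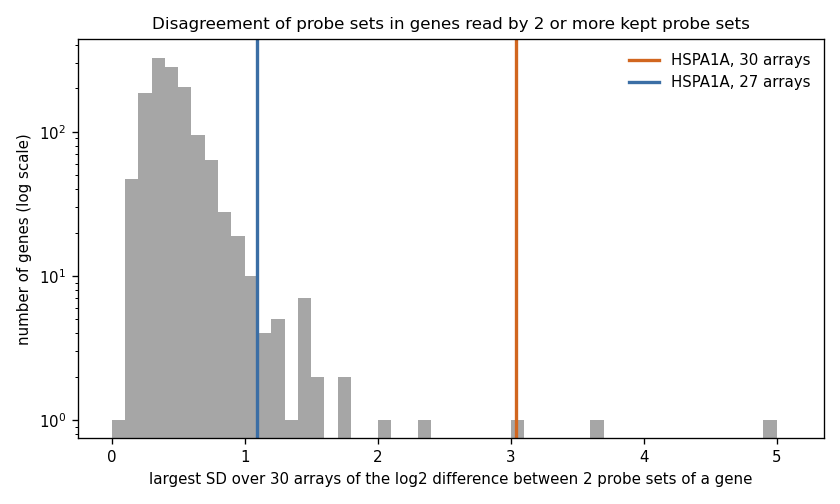
Number of genes (vertical axis, log scale) by the largest SD over 30 arrays of the log2 difference between 2 of their kept probe sets (horizontal axis), for 1290 genes. HSPA1A lies at 3.04 over 30 arrays and at 1.09 over the 27 without animal 10, and most genes lie near the median of 0.42.

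Without animal 10 DNAJB1 was the gene most like each of the 3 high probe sets, and ZFAND2A was among the 5 most like genes of all 3. Bt.23161.2.A1_at was most like DNAJB1 (r = 0.88 over 30 arrays, Spearman 0.89), RSRP1 (0.84), H2AC6 (0.84), ZFAND2A (0.81) and BAG3 (0.79), and over 27 arrays SLC35G1 (0.80) took the place of BAG3. DNAJB1 is the HSP40 partner induced with HSPA1A, BAG3 is a stress-induced exchange factor, and ZFAND2A serves the proteasome under stress. HSPH1, the HSP110 exchange factor, was at 0.79, the small heat shock protein HSPB1 at 0.66 and HSP90AA1, the inducible HSP90, at 0.65. HSF1 itself was at -0.09.

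Bt.5154.1.S1_s_at over 27 arrays was most like DNAJB1 (0.91), ZFAND2A (0.82), BAG3 (0.82), HSPH1 (0.79) and H2AC6 (0.78). Bt.5154.1.S1_at was most like DNAJB1 (0.85), HSPH1 (0.77), BAG3 (0.76), ZFAND2A (0.75) and SLC35G1 (0.74). With animal 10 DNAJB1 was at 0.04 and -0.08 instead. The most like gene was then DICER1, the nuclease of microRNA processing, at 0.79 and 0.83, with Spearman values of 0.28 and 0.25. AKR1C4, TMEM184C, SIAH2 and TCF4 followed at 0.67 to 0.73. Without animal 10 DICER1 was at 0.00 and -0.01, so its place rests on those 3 arrays.

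Bt.23528.1.S1_at and Bt.7035.1.S1_at had other neighbours. Bt.23528.1.S1_at was most like CDKN2AIPNL (0.80), CENPS (0.72), NT5C3A (0.68), CENPN (0.67) and GTPBP10 (0.67), of which CENPS and CENPN encode kinetochore proteins. Bt.7035.1.S1_at was most like LRATD1 (0.79), UBE2S (0.77), FAM83B (0.77), EZH2 (0.76) and UBE2C (0.76). UBE2S and UBE2C are ubiquitin enzymes of mitosis and EZH2 a histone methyltransferase of dividing cells. DNAJB1 was at -0.25 with Bt.23528.1.S1_at and 0.17 with Bt.7035.1.S1_at. For Bt.7035.2.S1_at, below the median throughout, the closest were GPAT4 (0.62), RFC5 (0.62), INIP (0.61), SCAF11 (0.58) and THOC2 (0.58).

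Across the list of heat shock genes the split was only partial. Of 61 genes, 15 had a correlation above 0.5 with Bt.23161.2.A1_at, or 24.6%, beside 1.44% of all kept probe sets. With Bt.5154.1.S1_s_at it was 0 genes over 30 arrays and 15 without animal 10 (24.6% beside 1.73%). With Bt.5154.1.S1_at it was 0 and 11 (18.0% beside 1.64%). Bt.7035.1.S1_at passed 0.5 with 9 genes (14.8% beside 4.99%), HSPA2 highest among the HSP70 family at 0.64, and Bt.23528.1.S1_at with 0. Without animal 10 these 2 probe sets passed it with 11 genes (18.0% beside 5.98%) and 1 gene (1.64% beside 1.56%). The median correlation with the list over 30 arrays was 0.29 for Bt.7035.1.S1_at and 0.25 for Bt.23161.2.A1_at. Within the HSP70 family the constitutive HSPA8 was at 0.50 to 0.55 with the 3 high probe sets over 27 arrays, the endoplasmic reticulum form HSPA5 at 0.29 to 0.30, the mitochondrial HSPA9 at -0.23 to -0.20 and the testis-type HSPA2 at -0.19 to -0.12.

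**Figure D4:**
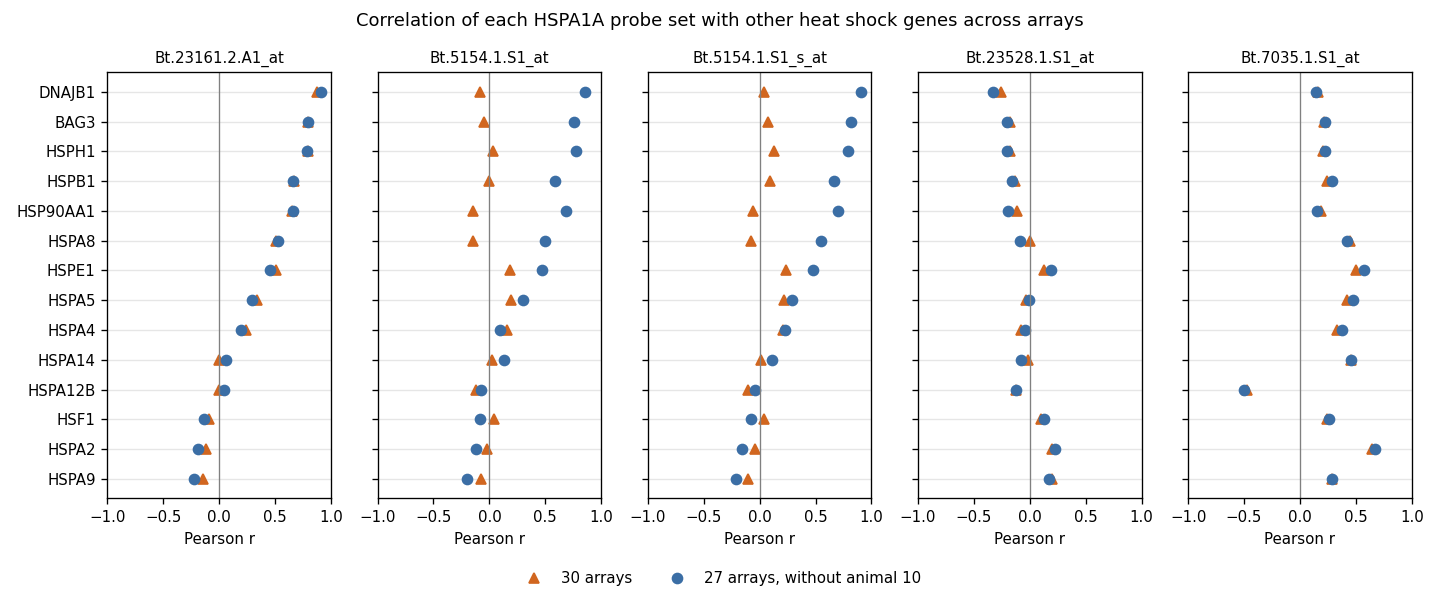
Pearson correlation across arrays (horizontal axes) of 5 HSPA1A probe sets with 14 heat shock genes, over 30 arrays (orange triangles) and over 27 without susceptible animal 10 (blue circles). DNAJB1 is at 0.88 and 0.91 with Bt.23161.2.A1_at, moves from -0.08 to 0.85 and from 0.04 to 0.91 with the Bt.5154.1 probe sets, and is at -0.25 and -0.32 with Bt.23528.1.S1_at and at 0.17 and 0.14 with Bt.7035.1.S1_at.

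Tissue markers moved with Bt.7035.1.S1_at more than with the high probe sets. The mean of 5 epidermal genes correlated with it at 0.52, that of 3 smooth muscle genes at -0.63 and that of 3 endothelial genes at -0.53. The 3' minus 5' difference of actin was at -0.49. With Bt.23161.2.A1_at the same 4 measures were at -0.24, -0.06, 0.20 and -0.13. The part of tissue makeup or RNA quality in the signal of Bt.7035.1.S1_at was not tested. In a whole biopsy fewer cells of a type and less RNA per cell cannot be told apart. KRT5 and COL1A1, defining markers of epidermis and of fibroblasts, were at or above the median on all 30 arrays.

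The comparison of resistant with susceptible skin depended on which probe set was read. At 0 h Bt.23161.2.A1_at was at 14.02 ± 0.25 (SD, n = 5) in resistant and 13.96 ± 0.63 (SD, n = 3) in susceptible skin, a difference of 0.067 ± 0.55 (SE of the fit). Bt.5154.1.S1_at gave 3.59 ± 2.03 and Bt.5154.1.S1_s_at 3.24 ± 1.85. Without animal 10 these were 0.057 ± 0.57 and 0.39 ± 0.74, and Bt.23161.2.A1_at gave 0.22 ± 0.63. The large differences before infestation thus came with 1 array, and the groups overlapped with and without it.

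At 24 h Bt.5154.1.S1_at was 1.02 ± 1.60 and Bt.5154.1.S1_s_at 0.61 ± 1.46 higher in resistant skin. Without animal 10 both turned, to -0.60 ± 0.41 and -0.88 ± 0.54. Bt.23161.2.A1_at was at -0.47 ± 0.44 with animal 10 and -0.68 ± 0.46 without it, so the 3 probe sets then had the same sign. Resistant and susceptible arrays overlapped in each of them.

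At 48 h the Bt.5154.1 probe sets gave 1.92 ± 1.76 and 1.60 ± 1.60, and 0.31 ± 0.46 and 0.10 ± 0.60 without animal 10. Bt.23161.2.A1_at gave -0.01 ± 0.48, and 0.07 ± 0.51 without it, values too near 0 to carry a sign. Bt.7035.1.S1_at was the one with the larger difference against its error, at 8.53 ± 0.34 (SD, n = 5) in resistant and 8.91 ± 0.26 (SD, n = 5) in susceptible skin, a difference of -0.39 ± 0.18. Without animal 10 that difference was -0.32 ± 0.19. At 0 h the same probe set had been 0.35 ± 0.21 higher in resistant skin, and 0.40 ± 0.24 without animal 10.

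**Figure D5:**
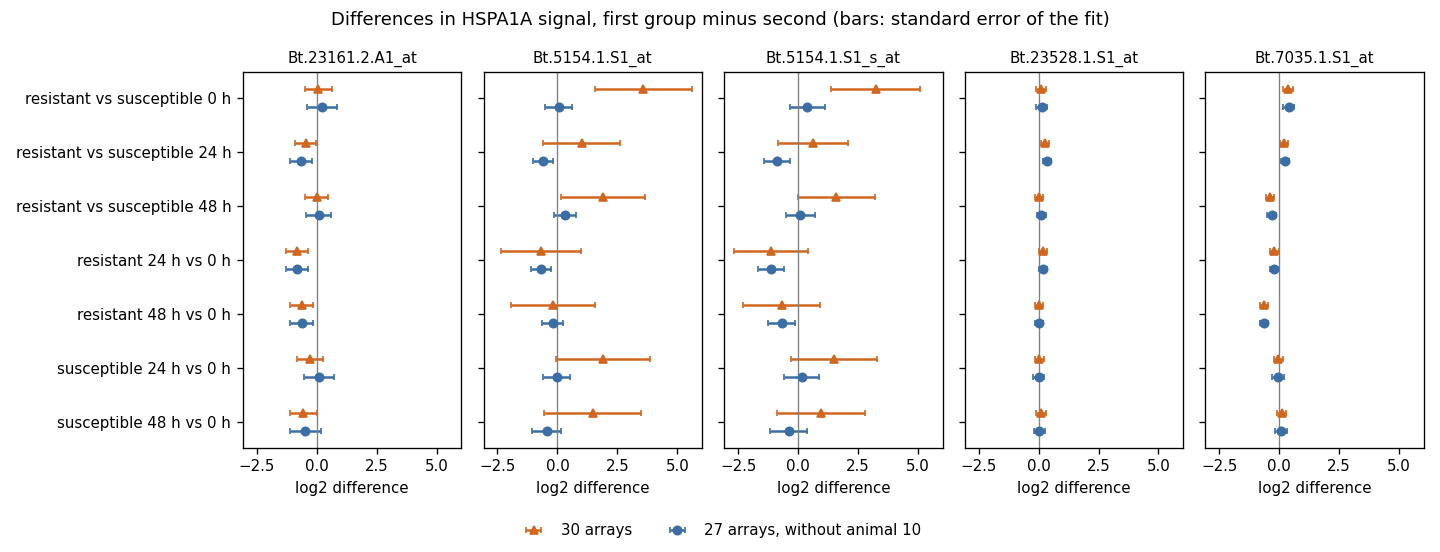
Log2 differences (horizontal axes, first group minus second) with the SE of the fit for 5 HSPA1A probe sets in 7 comparisons, over 30 arrays (orange triangles) and over 27 without susceptible animal 10 (blue circles). In the Bt.5154.1 probe sets the difference at 0 h moves from 3.59 and 3.24 to 0.057 and 0.39, and in the other 3 probe sets the markers stay near each other.

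Over time in resistant skin the 3 high probe sets had lower means after infestation. At 24 h against 0 h Bt.23161.2.A1_at differed by -0.81 ± 0.46, Bt.5154.1.S1_at by -0.68 ± 1.68 and Bt.5154.1.S1_s_at by -1.13 ± 1.53. Animal 10 is not in these groups, but it widens the shared error, and without it the last pair had errors of 0.41 and 0.54. Bt.23161.2.A1_at was lower at 24 h in 4 of 5 animals with both arrays, by a median of -0.25 with the animal numbers as given and -0.997 with 3 uncertain numbers moved, and the groups overlapped. At 48 h the differences from 0 h were -0.63 ± 0.48, -0.20 ± 1.76 and -0.68 ± 1.60.

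Bt.7035.1.S1_at followed another course in resistant skin. It read 9.11, 9.29, 9.39, 8.89 and 9.17 at 0 h, ran from 8.66 over a median of 8.87 to 9.55 at 24 h, and read 8.11, 8.28, 8.60, 9.0 and 8.64 at 48 h. It was lower at 48 h than at 0 h in 4 of 4 animals (3 of 4 with the numbers of 3 arrays moved, as described with the heat shock genes), by -0.17 to -1.0, with a difference of the means of -0.64 ± 0.18. The 2 groups overlapped at 8.89 to 9.0. Bt.23528.1.S1_at differed by 0.20 ± 0.17 at 24 h and 0.02 ± 0.17 at 48 h.

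In susceptible skin the time course in the Bt.5154.1 probe sets depended on animal 10, and the sign turned without it at 48 h. At 24 h against 0 h they differed by 1.89 ± 1.96 and 1.5 ± 1.79, and without animal 10 by -0.02 ± 0.57 and 0.15 ± 0.74. At 48 h they differed by 1.48 ± 2.03 and 0.96 ± 1.85, and without animal 10 by -0.45 ± 0.59 and -0.39 ± 0.77. Bt.23161.2.A1_at differed by -0.28 ± 0.53 at 24 h and -0.56 ± 0.55 at 48 h. Without animal 10 these were 0.09 ± 0.63 and -0.48 ± 0.65, so its sign at 24 h turned as well. In a fit with 1 term for each animal, which compares it with itself, the Bt.5154.1 pair differed by 0.47 and 0.14 at 24 h and by 0.23 and -0.32 at 48 h. That fit still holds animal 10, which is 1 of the 3 susceptible animals with a 0 h array. Its readings in the pair, 3.42 to 5.55 and 4.67 to 5.61, all lay below the array median.

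Ordered by mean, Bt.23161.2.A1_at ran from resistant 0 h (14.02) over susceptible 0 h (13.96), susceptible 24 h (13.68), susceptible 48 h (13.40) and resistant 48 h (13.39) to resistant 24 h (13.21). Bt.5154.1.S1_at ran from resistant 0 h (14.07), 48 h (13.88) and 24 h (13.39) to susceptible 24 h (12.37), 48 h (11.96) and 0 h (10.48). That order rests on animal 10, without which the susceptible means were 14.02 before infestation, then 14.00 (24 h) and 13.56 (48 h), and lay among the resistant ones. In neither order, nor in those of the other 4 probe sets, was a step between neighbouring groups larger than the larger of their SDs, and all neighbours overlapped.

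The other heat shock genes were not used to choose HSPA1A, and their differences were tested with limma over all kept probe sets, with Benjamini-Hochberg adjusted p under 0.05 as the call. Of 61 genes with a kept probe set, 0 were called in each of the 11 comparisons. Over all kept probe sets 0.0145% were called in resistant against susceptible skin at 48 h (2 of 13809) and 0% in every other comparison. At an unadjusted p under 0.05 there were 2, 2 and 5 heat shock genes between the phenotypes at 0 h, 24 h and 48 h. In resistant skin there were 10 at 24 h against 0 h, 23 at 48 h against 0 h and 4 at 48 h against 24 h. In susceptible skin there were 2, 0 and 1, and 0 for each difference of response between phenotypes. Over all kept probe sets the share at that p was 4.51%, 4.4% and 10.1% between phenotypes and 4.72%, 11.02% and 9.65% in resistant skin. Of the list it was 3.28%, 3.28% and 8.20%, and 16.4%, 37.7% and 6.56%, above the share over all probe sets in both resistant comparisons with 0 h and below it in the other 4. In susceptible skin it was 3.28%, 0% and 1.64% of the list beside 2.30%, 0.949% and 1.88%. For the difference of response at 24 h and at 48 h it was 0% of the list each time, beside 1.85% and 2.93%.

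The resistant time course, where the 3 high HSPA1A probe sets had lower means too, held most of these genes. At 24 h against 0 h 50 of 61 genes had a lower mean, with a median difference of -0.19 where the median over all probe sets was -0.0014. The smallest p belonged to STIP1, which links HSP70 to HSP90 (-0.61 ± 0.15 SE, limma adjusted p = 0.50), and DNAJB2 (-0.38 ± 0.13 SE, adjusted p = 0.81). At 48 h 48 of 61 had a lower mean, with a median of -0.25 beside -0.02, and CHORDC1, a partner of HSP90, differed by -1.16 ± 0.35 and BAG2, an exchange factor, by -0.53 ± 0.16 (limma adjusted p = 0.28 each). The HSP40 list was mixed, with 8 of 13 lower, and the chaperonins had 8 of 8 lower. These comparisons share their 0 h arrays, and this list had been seen in earlier results on these data, so neither count supports the other. Cell type markers differed between the same arrays. The macrophage list (6 of 6 genes kept) was at 9.61 to 10.46 at 48 h and 8.30 to 9.50 at 0 h, and the epidermis list (5 of 6) at 10.81 to 12.87 and 12.56 to 13.02. Their part in the lower heat shock means was not tested.

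Among the partners of HSPA1A, DNAJB1 differed by -0.61 ± 0.49 at 24 h and -0.56 ± 0.51 at 48 h in resistant skin, BAG3 by -0.69 ± 0.44 and -0.67 ± 0.46, and HSPH1 by -0.81 ± 0.55 and -0.66 ± 0.57. HSPB1 differed by -0.41 and -0.37, HSP90AA1 by -0.25 and -0.18, HSPE1 by -0.25 and -0.25 and HSF1 by -0.17 and -0.33. None of these partners passed the test. Of the HSP70 family at 48 h, HSPA2 differed by -0.60, HSPA4 by -0.52, HSPA5 by -0.39, HSPA14 by -0.36, HSPA8 by -0.32, HSPA9 by 0.01 and HSPA12B by 0.21.

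When each animal had its own term, limma called 2 of the 61 genes at 48 h against 0 h in resistant skin, HSPA2 (-0.77 ± 0.14 SE, adjusted p = 0.0331) and BAG2 (-0.70 ± 0.15 SE, adjusted p = 0.0463), where 0.608% of all kept probe sets were called. Of 8 arrays at 0 h, 5 were closest to later arrays of their own number, and the resistant 03, 04 and 05 were closest to 04, 05 and 06. The distances of those 3 were 0.56, 0.58 and 0.70 to the closest animals and 2.64, 1.45 and 2.85 to their own numbers. The 5 others lay at 0.50 to 0.74 from their own. With those 3 numbers moved the calls were BAG2 (-0.61 ± 0.13 SE) and CCT5, a chaperonin subunit (-0.55 ± 0.11 SE), both at an adjusted p of 0.0415, where 0.782% were called. The limma adjusted p was 0.0596 for HSPA2 with the numbers moved and 0.0946 for CCT5 with them as given. Which numbers are right was not settled beyond the distances, and only BAG2 was called under both.

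Between the phenotypes, the gene with the smallest or second smallest p at each time was DNAJC3, an HSP40 of the endoplasmic reticulum. Its difference, higher in resistant skin, was 0.37 ± 0.15 before infestation, then 0.28 ± 0.12 (24 h) and 0.32 ± 0.13 (48 h), and did not pass at any (the lowest limma adjusted p was 0.426). STUB1 at 0 h (0.36 ± 0.17), the exchange factor SIL1 at 24 h (0.41 ± 0.20) and DNAJB6 at 48 h (-0.31 ± 0.12) were the others. Without animal 10 limma again called 0 of the 61 genes in all 11 comparisons. It also called 0 of all kept probe sets there, so the count is no trait of the heat shock genes.

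In the remaining comparisons the genes with the smallest p did not pass either. In resistant skin at 48 h against 24 h these were HSPB2 (0.58 ± 0.21) and DNAJB5 (0.68 ± 0.29). In susceptible skin they were CRYAB (-0.66 ± 0.25) and HSPB1 (-0.46 ± 0.21) at 24 h against 0 h, CDC37 (0.27 ± 0.18) and HSPB1 (-0.32 ± 0.22) at 48 h against 0 h, and HSPB2 (0.44 ± 0.21) and CDC37 (0.26 ± 0.15) at 48 h against 24 h. HSPB1, HSPB2, HSPB6 and CRYAB are small heat shock proteins, and CDC37 brings kinases to HSP90. For the difference of response between resistant and susceptible skin they were HSPBP1 (-0.51 ± 0.32) and DNAJB9 (-0.42 ± 0.27) at 24 h, and HSPB6 (1.09 ± 0.54) and DNAJB9 (-0.55 ± 0.28) at 48 h. For HSPA1A the same difference of response varied by probe set and was not tested. The value without animal 10 follows in brackets. At 24 h it was -2.57 ± 2.58 (-0.66 ± 0.70) in Bt.5154.1.S1_at and -2.63 ± 2.36 (-1.28 ± 0.92) in Bt.5154.1.S1_s_at. Bt.23161.2.A1_at gave -0.54 ± 0.70 (-0.90 ± 0.78). At 48 h these probe sets gave -1.67 ± 2.68 (0.26 ± 0.73), -1.64 ± 2.45 (-0.29 ± 0.95) and -0.07 ± 0.73 (-0.15 ± 0.81). Bt.7035.1.S1_at gave -0.74 ± 0.27 (-0.72 ± 0.31) at 48 h, the largest against its error.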

How the data were processed

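Skin RNA was amplified with the 3' IVT Express kit from 50 ng and hybridised to Affymetrix bovine arrays, per the labels' protocols. What the authors deposited is log2 signal, and MAS5 is named in the submitters' processing notes. On the linear scale each of the 30 arrays had a mean of 500 after 2% trimming. Detection calls are not used here. Symbols came from the platform annotation supplied with the values, which gives 13292 probe sets 1 symbol, 86 several and 10638 none. The 112 control probe sets were left out.

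A model of 6 group means was fitted to 13809 kept probe sets with limma 3.58.1 in R 4.3.3 (lmFit, eBayes with a trend, two-sided), and tested on simulated data. Each gene of the heat shock list was represented by its kept probe set with the highest mean. Plots used matplotlib 3.10.9 in Python 3.11.15. The members and lists were chosen with earlier results of these data known. Named genes were all HSPA1A probe sets, the HSP70 family, 7 partners, the 2 smallest p in each comparison where none passed, and the 5 genes most correlated with each probe set. Other genes were named after their values were seen.

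Arrays with 1 animal number come from 1 animal, per the labels, so the numbers pair arrays, and 3 numbers at 0 h are uncertain. Groups share animals, and the small number of arrays sets the precision.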

Additional observations from a re-analysis of the deposited data

Results flagged for a closer look

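Over 6 HSPA1A probe sets in 5 groups of 5 or 6 arrays, 5 of the 30 sets of values held an array far from the others by Dixon's criterion. The criterion marks about 1 in 20 groups by chance, but it serves here only to describe, since the gene was selected on these values. In 3 of them it was susceptible animal 10: at 4.24 at 24 h and 5.55 at 48 h for Bt.5154.1.S1_at, and at 4.67 at 24 h for Bt.5154.1.S1_s_at, each the lowest of its group. For Bt.5154.1.S1_s_at at 48 h the array of animal 10 was also the lowest and did not meet the criterion. Susceptible groups at 0 h hold 3 arrays and were not looked at. Resistant animal 02 was lowest at 24 h for Bt.23528.1.S1_at, at 9.62. Susceptible animal 13 was lowest at 24 h for Bt.7035.2.S1_at, at 1.02, a probe set below the array median on all 30 arrays. The causes were not tested.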

How the results depend on the processing

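Of 1810 recomputed values of 87 results on HSPA1A, counts of calls and correlations, 1765 stayed within their limits and 45 moved; the cause was not tested. Most of the moves in HSPA1A came with susceptible animal 10, whose removal as a whole was chosen after the data were seen. Without its arrays the resistant minus susceptible difference at 0 h was 0.057 for Bt.5154.1.S1_at and 0.39 for Bt.5154.1.S1_s_at. The correlation of Bt.23161.2.A1_at was 0.92 with the former and 0.97 with the latter, and that of Bt.7035.1.S1_at was 0.038 and 0.077. As deviations from group means, Bt.23528.1.S1_at correlated with the pair at -0.39 and -0.43, and Bt.7035.1.S1_at with Bt.5154.1.S1_s_at at -0.26.

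Leaving out 1 array at a time, with a lone array never left in a group, the differences ran as follows for Bt.5154.1.S1_at and Bt.5154.1.S1_s_at, and 1 end of each range came without the 0 h array of animal 10. Between phenotypes at 0 h they ran from 0.057 to 5.66 and from 0.39 to 4.94. In susceptible skin they ran from -1.65 to 3.96 and from -1.35 to 3.20 at 24 h, and from -2.06 to 3.55 and from -1.89 to 2.66 at 48 h. The difference of response ran from -4.64 to 0.97 and from -4.33 to 0.22 at 24 h, and from -3.74 to 1.86 and from -3.34 to 1.21 at 48 h. The correlation with Bt.23161.2.A1_at ran from 0.11 to 0.39 and from 0.26 to 0.51.

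Over all probe sets, limma called 2 between phenotypes at 48 h, 10 after centring on the array median, 4 with no filter, 0 with only the groups compared, 0 without animal 10, and 0 to 14 without single arrays, 9 of 10 of which moved the count (14 without susceptible 11). In resistant skin the counts of 0 became 0 to 2 without single arrays at 24 h against 0 h (2 without the 0 h array of 05) and at 48 h against 0 h (1 without the 0 h array of 01, 2 without the 48 h array of 06), and 0 to 1 at 48 h against 24 h (1 without the 24 h array of 01). With a replicate block for the animal number as a random term 2 were called at 48 h against 0 h, and as a fixed term 84, or 108 with 3 numbers moved, of which 2 were heat shock genes each time; at 48 h against 24 h the moved numbers gave 16. BAG2 passed in both fixed fits (-0.70 and -0.61). The fixed term cannot give differences between phenotypes, and the block changed no other call on heat shock genes. Detection calls and probe-level signals were not used here.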
